A study of Homo sapiens with 30 samples.

Results

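Posterior-derived regions were stretches of open chromatin found in all 3 day 4 populations that had passed through posterior neural ectoderm and in none of the 3 that had passed through anterior neural ectoderm. They were chosen by merging the peaks of 10 lists on chromosomes 1 to 22 wherever peaks overlapped by at least 1 bp. A list was called open at a merged region where it had a peak. Regions open in pNE_T, pNE_M and pNE_H and closed in aNE_T, aNE_M and aNE_H were kept. Of 476170 merged regions, 11092 met this rule, which is 2.33% of all regions and 8.76% of the 126672 regions open in the 3 pNE-derived lists. The peaks of the 6 day 4 lists made the choice, so the state of the members on day 4 is a description and not a finding. Their state in the 4 earlier lists was not a condition of the rule, but the peaks of those lists took part in the merging. An earlier peak that joined a pNE-derived peak to an aNE-derived peak took that region out of the set. The earlier shares are so not fully separate from the choice.

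The cells were wild-type H1, an established line of human embryonic stem cells, profiled by OmniATAC-seq from 50000 cells per library. ATAC-seq marks DNA that the Tn5 transposase can reach. The hPSC group was day 0 pluripotent cells in hPSC media. The DE group was definitive ectoderm after 1 day in CDM2 with A8301, Trametinib, C59 and LDN193189, and every later group passed through this step. The aNE group then spent 1 day in A8301, LDN193189, C59 and Thiazovivin. The pNE group instead received A8301, LDN193189, TTNPB at 50 nM, FGF2 at 20 ng/mL, XAV939 and Thiazovivin. On day 2 either kind of cell was moved into Telencephalon, Midbrain or Hindbrain media until day 4. The anterior route so gave aNE_T, aNE_M and aNE_H, and the posterior route pNE_T, pNE_M and pNE_H. The telencephalon (forebrain) medium of day 3 held XAV939, LDN193189 and FGF2, and the make-up of the other 2 media is not given in the sources used here. Cells kept to day 4 were plated at 75000 per square cm on the anterior route and at 150000 on the posterior route, so origin and plating density cannot be told apart. The profiled aNE and pNE cells of day 2 were plated at 37500 per square cm. Between day 2 and day 4, time and plating density cannot be told apart either. Each group had 3 libraries from 1 cell line, and their peaks came as 1 list per group. The lists held 162041 (aNE) to 302355 (pNE_H) peaks on these chromosomes. No replicate test was possible, and the 95% Wilson intervals given for shares cover the sampling of regions, not the error between libraries. In such bulk material, fewer open cells and less accessibility per cell cannot be told apart.

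TTNPB is a synthetic retinoid that activates the retinoic acid receptors. In the embryo, retinoic acid and FGF give the neural tube its hindbrain and spinal identity. They do so largely through the HOX genes, whose 4 clusters are opened in order from their 3′ ends. HOX proteins bind DNA together with PBX and MEIS cofactors, and retinoic acid receptors bind pairs of AGGTCA elements.

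Only 169 of 33558 annotated promoter windows (0.504%) touched a posterior-derived region, and a few of them are shown because the later results turn on them. Each sequence is the 250 bases before an annotated transcription start in RefSeq's GRCh38.p14 annotation, read 5′ to 3′ on the strand of the gene. Capitals mark 3 kinds of match on either strand: TGATNNAT, the form of paired HOX and PBX sites; the HNF1 form (GTTAAT, any base, then ATT), a core of the site bound by the hepatocyte nuclear factor 1 proteins; and DR5, the retinoic acid receptor element, in which 2 copies of AGGTCA run in one direction with 5 bases between them. A match is a description of letters, not evidence of binding. The promoters of the HOXB1 and HOXA3 homeobox genes are shown as the only HOX promoters among them. HOXB1 lies on the minus strand (chr17:48531012-48531261) and HOXA3 too (chr7:27122373-27122622). HOXB1 is known to maintain its own expression in the hindbrain through HOX and PBX sites upstream of its start.
HOXB1: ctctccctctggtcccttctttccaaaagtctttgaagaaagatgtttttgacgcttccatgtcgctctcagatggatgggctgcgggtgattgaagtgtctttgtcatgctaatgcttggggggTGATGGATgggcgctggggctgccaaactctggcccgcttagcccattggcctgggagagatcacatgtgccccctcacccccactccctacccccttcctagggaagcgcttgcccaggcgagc
HOXA3: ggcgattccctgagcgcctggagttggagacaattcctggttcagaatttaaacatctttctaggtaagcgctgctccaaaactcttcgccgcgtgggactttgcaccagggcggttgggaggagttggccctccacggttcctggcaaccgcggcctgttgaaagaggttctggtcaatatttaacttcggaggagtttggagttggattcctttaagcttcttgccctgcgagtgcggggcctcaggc

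The next set shows 6 of the 7 protein-coding genes whose windows held the HNF1 form. They were ARHGEF10L on the plus strand (chr1:17580204-17580453), GAS2 on the plus strand (chr11:22674524-22674773), HAVCR1 on the minus strand (chr5:157059117-157059366), PLA1A on the plus strand (chr3:119597635-119597884), RAB3IL1 on the minus strand (chr11:61920285-61920534) and TMED6 on the minus strand (chr16:69351787-69352036). In ARHGEF10L the capitals run through 2 overlapping matches, one to the HNF1 form and one to TGATNNAT. TMED6 holds both kinds as well, apart from each other. The seventh gene, SMAD7, has its match downstream of the start and is not shown.
ARHGEF10L: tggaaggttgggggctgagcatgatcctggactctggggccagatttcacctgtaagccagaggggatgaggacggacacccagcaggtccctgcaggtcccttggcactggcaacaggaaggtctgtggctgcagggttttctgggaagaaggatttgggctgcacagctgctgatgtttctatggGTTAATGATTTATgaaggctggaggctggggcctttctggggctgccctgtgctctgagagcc
GAS2: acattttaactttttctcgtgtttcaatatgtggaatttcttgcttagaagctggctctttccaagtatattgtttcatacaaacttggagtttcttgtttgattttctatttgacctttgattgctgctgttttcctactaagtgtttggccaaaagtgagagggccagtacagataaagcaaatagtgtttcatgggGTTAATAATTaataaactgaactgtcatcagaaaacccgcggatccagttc
HAVCR1: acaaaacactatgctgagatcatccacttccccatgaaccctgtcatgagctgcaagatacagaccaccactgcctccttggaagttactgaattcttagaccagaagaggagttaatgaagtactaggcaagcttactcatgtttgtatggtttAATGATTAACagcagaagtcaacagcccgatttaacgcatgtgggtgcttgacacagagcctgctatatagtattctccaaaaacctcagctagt
PLA1A: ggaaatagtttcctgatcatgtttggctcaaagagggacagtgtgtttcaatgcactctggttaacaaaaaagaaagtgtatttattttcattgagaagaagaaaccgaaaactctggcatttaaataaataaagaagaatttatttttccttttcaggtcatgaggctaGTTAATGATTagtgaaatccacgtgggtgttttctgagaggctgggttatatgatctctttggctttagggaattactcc
RAB3IL1: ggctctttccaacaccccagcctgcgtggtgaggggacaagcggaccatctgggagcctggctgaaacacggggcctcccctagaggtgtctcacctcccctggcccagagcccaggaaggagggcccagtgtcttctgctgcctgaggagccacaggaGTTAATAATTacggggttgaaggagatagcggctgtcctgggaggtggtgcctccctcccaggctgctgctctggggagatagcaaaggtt
TMED6: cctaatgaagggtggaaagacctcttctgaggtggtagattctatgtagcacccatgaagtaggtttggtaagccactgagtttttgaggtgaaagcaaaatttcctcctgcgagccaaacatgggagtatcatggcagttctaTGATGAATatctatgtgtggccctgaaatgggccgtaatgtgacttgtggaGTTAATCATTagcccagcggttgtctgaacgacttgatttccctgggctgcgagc

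The last set shows 3 protein-coding promoters with the HOX and PBX form and the single one with DR5. PDZRN3 lies on the minus strand (chr3:73433996-73434245), SLC17A4 on the plus strand (chr6:25754449-25754698) and TGIF1 on the plus strand (chr18:3451343-3451592). LOC105373682, a long noncoding RNA gene, lies on the minus strand (chr2:150166330-150166579).
PDZRN3: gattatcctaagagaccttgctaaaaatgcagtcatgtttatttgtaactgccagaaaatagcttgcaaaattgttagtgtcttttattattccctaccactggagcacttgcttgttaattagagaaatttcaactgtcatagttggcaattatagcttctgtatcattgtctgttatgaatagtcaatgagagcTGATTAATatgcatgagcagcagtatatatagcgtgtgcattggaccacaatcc
SLC17A4: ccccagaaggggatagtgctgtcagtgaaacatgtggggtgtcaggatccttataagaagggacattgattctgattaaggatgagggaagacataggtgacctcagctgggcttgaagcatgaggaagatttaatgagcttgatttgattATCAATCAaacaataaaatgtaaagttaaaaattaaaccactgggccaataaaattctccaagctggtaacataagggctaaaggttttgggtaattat
TGIF1: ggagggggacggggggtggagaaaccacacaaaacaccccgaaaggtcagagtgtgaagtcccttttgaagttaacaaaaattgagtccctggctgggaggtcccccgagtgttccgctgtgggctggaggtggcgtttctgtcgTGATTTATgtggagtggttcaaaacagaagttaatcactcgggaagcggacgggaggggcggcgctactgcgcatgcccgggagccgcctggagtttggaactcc
LOC105373682: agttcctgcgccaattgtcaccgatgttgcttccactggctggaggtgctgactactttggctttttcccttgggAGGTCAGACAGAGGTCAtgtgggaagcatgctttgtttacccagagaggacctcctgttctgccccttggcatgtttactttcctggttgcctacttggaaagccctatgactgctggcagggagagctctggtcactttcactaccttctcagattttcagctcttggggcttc

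Most posterior-derived regions had no peak before day 4. Of the 11092 members, 7191 were open in none of hPSC, DE, aNE and pNE, which is 64.8% (63.9 to 65.7). The same was true of 35.0% of all merged regions and of 41.5% of regions open in at least 1 day 4 list. In the pluripotent cells 1096 members were open (9.88%, 9.34 to 10.5), and in definitive ectoderm 1466 were open (13.2%, 12.6 to 13.9). Among the day 2 cells, 1254 were open in anterior neural ectoderm (11.3%, 10.7 to 11.9) and 2744 in posterior neural ectoderm (24.7%, 23.9 to 25.6). Posterior neural ectoderm, the stage before the 3 populations that define the set, thus had the highest share of the 4 earlier lists. Its interval did not overlap those of the others. Still, 8348 members had no peak in pNE, whose profiled cells were plated at a lower density than the day 4 cells. Among all merged regions the order was different, with 40.5% open in hPSC, 46.9% in DE, 32.0% in aNE and 39.2% in pNE.

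**Figure D1:**
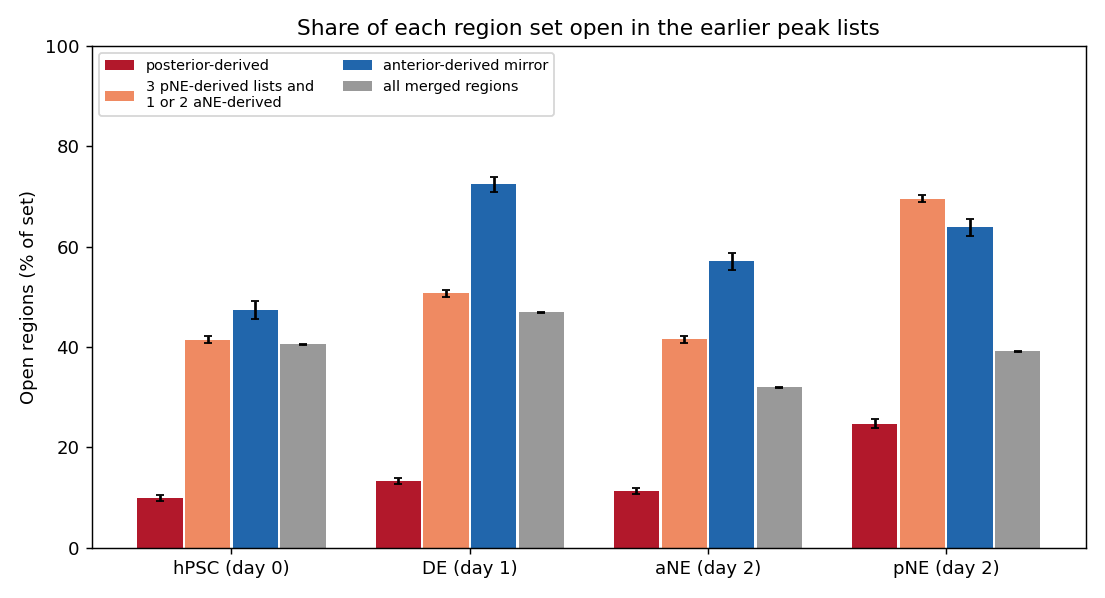
Share of regions (vertical axis, % of each set) open in the hPSC, DE, aNE and pNE lists, with Wilson 95% intervals over regions as error bars. The posterior-derived regions (dark red) stand at 9.88 to 13.2% in the first 3 lists and at 24.7% in pNE, below the other 3 sets in each list.

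The mirror set, open in the 3 aNE-derived lists and in no pNE-derived list, held 3037 regions (0.638% of all). Most of it had been open before. DE already had peaks at 72.4% (70.8 to 74.0) of the mirror regions, aNE at 57.1% and pNE at 63.9%, and 9.25% (8.27 to 10.3) were open in none of the 4 earlier lists. The number of posterior-derived regions per mirror region was 3.65 in the full lists. It fell to 1.48 when every list was cut to its widest 162041 peaks (7280 and 4924 regions). With 1 list left out of the rule, it was 1.54 without pNE_H, 1.55 without aNE_T, 1.64 without aNE_H, 3.12 without aNE_M, 5.40 without pNE_T and 7.01 without pNE_M. The part of list length in the size of the set was not tested further.

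Regions just outside the rule bracketed the members. Of regions open in the 3 pNE-derived lists and in 1 or 2 aNE-derived lists (18775), 69.6% were open in pNE and 15.9% in none of the earlier lists. Of regions open in 2 pNE-derived lists and no aNE-derived list (31633), 9.69% were open in pNE and 78.0% in none. The regions missing the rule by 1 pNE-derived list lacked pNE_M in 17346 cases, pNE_T in 12742 and pNE_H in 1545. Those missing it by 1 aNE-derived list were open in aNE_T in 2250 cases, in aNE_M in 1929 and in aNE_H in 1845.

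The 16 possible earlier states were filled unevenly. After the 7191 members with no earlier peak came 1389 (12.5%) open in pNE alone of the earlier lists. Another 499 (4.50%) were open in both day 2 lists and not before. DE alone was open at 400 members and hPSC alone at 247, and 212 (1.91%) were open in all 4. In total 856 members (7.72%) had a peak on day 0 or 1 and none in either day 2 list. A missing peak does not show that a region had closed, and this count was not taken for other regions. Of the 1466 members open in DE, 692 were open in pNE too and 774 were not.

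**Figure D2:**
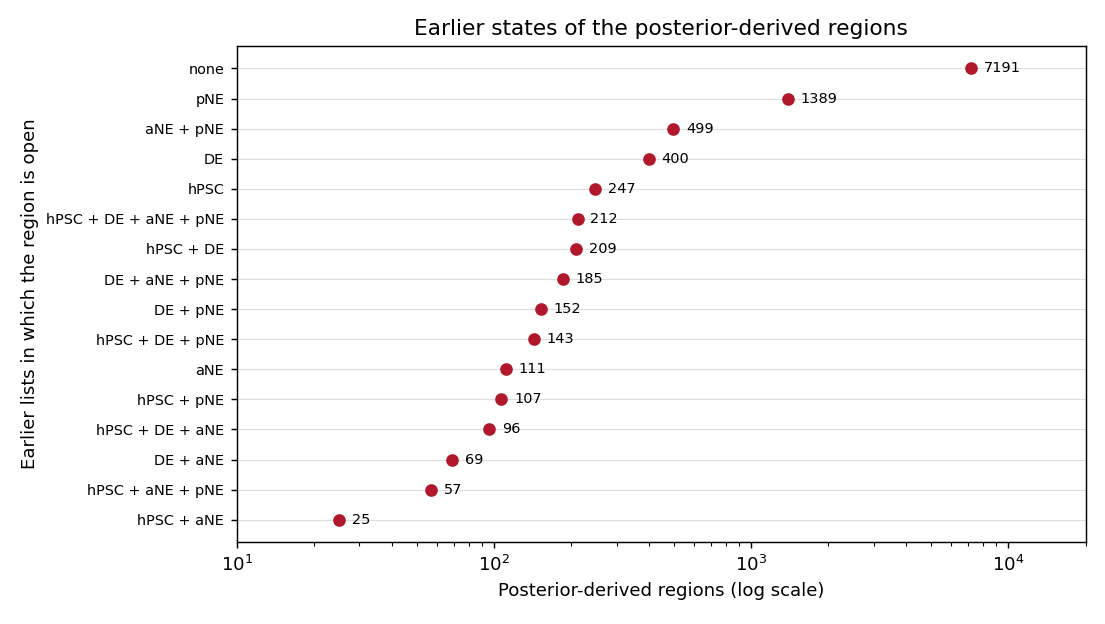
Number of posterior-derived regions (points, horizontal axis on a log scale) for each combination of earlier lists in which they were open. The class with no earlier peak holds 7191 regions, pNE alone holds 1389, and open in all 4 lists holds 212.

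On day 2 the members leaned toward the posterior route. Of them 1791 had a peak in pNE alone of the day 2 lists and 301 in aNE alone, a ratio of 5.95. A further 953 were open in both and 8047 in neither. The ratio over all merged regions was 2.29, which includes the greater length of the pNE list (199638 peaks against 162041), and in the mirror set it was 1.43. Regions open in all 6 day 4 lists had a higher ratio, 12.2, so a lean toward pNE was not confined to the posterior-derived set. With equal list lengths, pNE was open at 27.5% of the members and aNE at 18.2%, and the DE share (8.41%) then lay below that of aNE.

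The day 4 peaks at the members had a median width of 299 bp in pNE_T, 233 bp in pNE_M and 408 bp in pNE_H. For each region and list the widest peak was taken. Over all regions open in the 3 lists, members included, the medians were 391, 364 and 524 bp, so the members had narrower peaks than this larger set. Over all single peaks of these lists the medians were 287, 267 and 284 bp. That is an unlike measure, since a region can hold more than 1 peak of a list. Where a member already had a peak in pNE, that peak had a median width of 207 bp, and the aNE peaks had one of 205 bp. A wider day 4 peak went with an earlier peak in pNE. Members were put in classes by the narrowest of their 3 day 4 peaks. Below 150 bp, 16.3% (15.2 to 17.6) of 3518 members were open in pNE, and at 800 bp or more 61.6% (51.8 to 70.6) of 99 were. In aNE the shares of these 2 classes were 8.19% and 37.4%. In DE they were 15.4% and 13.1%, and in hPSC 12.2% and 10.1%. Regions open in the 3 pNE-derived and 1 or 2 aNE-derived lists had the same order in pNE, with 63.9% and 88.3%.

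**Figure D3:**
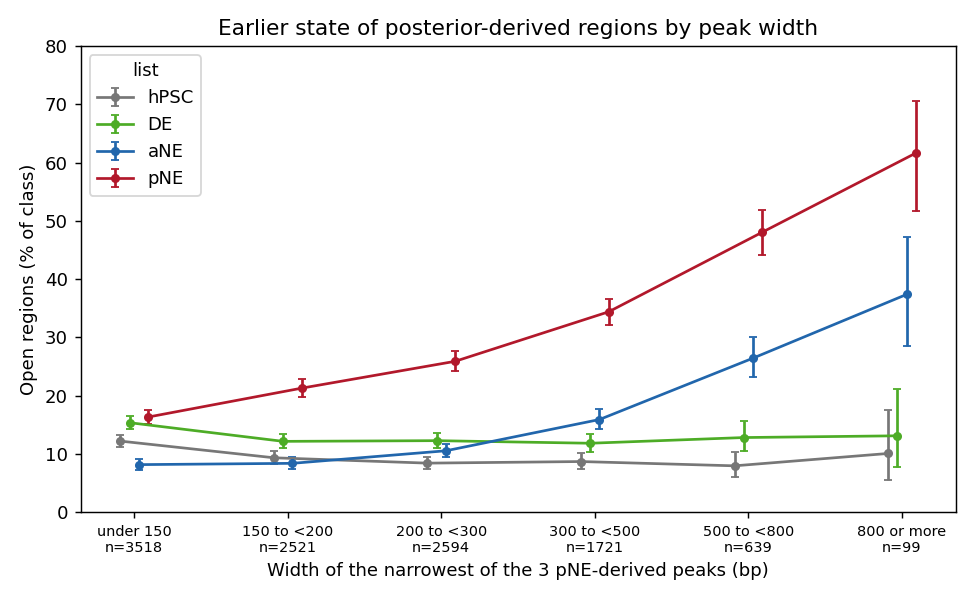
Share of posterior-derived regions open in each earlier list (vertical axis, %) by the width of the narrowest of the 3 pNE-derived peaks (horizontal axis, bp), with the number of regions under each class and Wilson 95% intervals over regions. The pNE line climbs from 16.3 to 61.6% and the aNE line from 8.19 to 37.4%, and the DE and hPSC lines stay between 7.98 and 15.4%.

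The members with the widest peaks included both kinds of history. The widest by its narrowest peak lay at chr3:170722832-170724294, in the noncoding genes SLC7A14-AS1 and LOC124906302. Its peaks were 1362, 1379 and 1421 bp wide in pNE_T, pNE_M and pNE_H, and pNE had a peak of 267 bp there. An aNE-derived peak lay 348 bp away from it. The regions at chr4:55795124-55796577 (outside genes, nearest to EXOC1L), chr4:180125392-180127088 (in LOC124900623), chr6:82614490-82615750 (in LOC105377876) and chr1:206951144-206952561 (outside genes, 4678 bp from the start of PIGR) had no earlier peak. PIGR encodes the receptor that carries polymeric immunoglobulins across epithelia. The region at chr3:157630878-157632489, nearest to VEPH1, was open in pNE alone of the earlier lists (212 bp). The 3 regions chr2:215816059-215817661 (in LINC00607), chr18:76770557-76771924 (nearest to ZNF236) and chr3:106796575-106798010 (nearest to CCDC54) were open in both day 2 lists, with the pNE peak wider than the aNE peak in each: 393 against 306 bp, 661 against 202 bp and 455 against 247 bp. The region chr10:80753274-80754512, nearest to SH2D4B, was open in all 4 earlier lists and was closed only in the aNE-derived populations.

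Posterior-derived regions were mostly far from gene starts. Of them 310 lay within 1 kb of an annotated start (2.79%, 2.50 to 3.12), against 5.22% of all regions, 12.8% of regions open in the 3 pNE-derived lists and 2.14% (1.68 to 2.72) of the mirror set. The median distance to a start was 49.6 kb, against 38.7 kb for all regions and 36.7 kb for the mirror set. It was much the same for regions open in no aNE-derived list and in 2 (51.3 kb) or 1 (48.8 kb) of the pNE-derived lists. More than 100 kb from any start lay 30.3% (29.5 to 31.2) of them, against 24.9% of all regions. Protein-coding genes overlapped 46.3% of them, noncoding genes alone 14.6%, and 39.2% lay outside both. Members open in pNE (2744) lay within 1 kb of a start in 2.88% of cases and the other 8348 in 2.77%. The members open in pNE had wider day 4 peaks than the other members. The medians were 384 against 274 bp in pNE_T, 272 against 222 bp in pNE_M and 510.5 against 379 bp in pNE_H. Their median merged region was 594 against 465 bp, a width to which the pNE peak itself can add.

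The members were spread thinly over the genome. By chromosome their share of merged regions ran from 1.29% on chromosome 19 to 2.91% on chromosome 4. The median distance between neighbours was 144 kb. Of 2721 windows of 1 Mb with any region, 2558 held a member, and the median was 4. The fullest window, from 48 to 49 Mb on chromosome 17, held 20 members among 282 regions. It contains the HOXB cluster and the SKAP1 gene, and 8 of the 20 lay within 50 kb of the HOXB cluster. The next, with 17 members of 241 regions on chromosome 3, contained PDZRN3, which encodes a ubiquitin ligase. The count of 14 was reached by windows on chromosomes 18 (8.86% of regions), 1 (8.48%), 2 (7.73% and 6.54%) and 9 (6.54%). The window from 176 to 177 Mb on chromosome 2 (6.54%) contains the HOXD cluster, and 3 of its 14 members lay within 50 kb of that cluster. The median distance from a member to the nearest aNE-derived peak was 3320 bp, 2239 members (20.2%) lay within 1 kb of one, 36 within 100 bp and 9239 (83.3%) within 10 kb. The same distance was not taken for other regions.

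The HOX genes, which give cells their position along the body axis, had the highest share of members among the gene lists. Of 344 regions within 50 kb of the 39 HOX genes, 18 were posterior-derived, which is 5.23% (3.34 to 8.12) against 2.33% of all regions, and 3 belonged to the mirror set. With a window of 10 kb the share was 6.43% (16 of 249), and by nearest gene it was 6.92% (22 of 318). The difference from all regions was not kept under every alternative. With lists of equal length the HOX share was 3.51% (1.92 to 6.34) against 2.08%, with the widest 50% of each list 4.23% (2.24 to 7.83) against 2.48%, without pNE_M in the rule 6.98% (4.73 to 10.2) against 5.97%, and more than 1 kb from gene ends 4.57% (2.42186 to 8.45) against 2.42299%. These 4 intervals take in the share of all regions. Neighbouring HOX genes share regions, so the genes are not separate observations. In the windows of 33 of the 39 genes lay at least 1 member, against 35.5% of all 19126 protein-coding genes, and in those of 25 at least 2, against 12.4%. Of the 18 members, 6 were open in pNE on day 2 and 10 had no earlier peak. A further 19 HOX regions failed the rule only because pNE_T lacked a peak (5.52%, against 2.68% of all regions). Because of pNE_M alone 6 failed (1.74%, against 3.64%), and because of pNE_H alone 3 (0.872%, against 0.324%).

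The HOXA and HOXB members lay mainly at the 3′ genes. Inside the HOXA cluster were 4 members, all at HOXA2 and HOXA3. The region at the HOXA3 start (chr7:27122256-27122803), whose promoter is printed above, had peaks of 491, 490 and 460 bp in pNE_T, pNE_M and pNE_H. It was open in all 4 earlier lists, with 267 bp in pNE and 382 bp in aNE, and had no peak in aNE_T, aNE_M or aNE_H. An aNE-derived peak lay 285 bp away from it. Another pair lay inside the HOXA3 gene: chr7:27110367-27111049 was open in hPSC, DE and pNE, and chr7:27120375-27121019 had no earlier peak and reached 580, 502 and 645 bp. The fourth, chr7:27104330-27104528, lay 1647 bp from the HOXA2 start and also had no earlier peak.

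Inside the HOXB cluster were 7 members. The region over HOXB1 (chr17:48530405-48531518) was open in all earlier lists. Its peaks were 796, 617 and 678 bp wide in pNE_T, pNE_M and pNE_H, 726 bp in pNE, 356 bp in aNE, 237 bp in DE and 800 bp in hPSC. The HOXB1 promoter was thus open at every step except in the 3 aNE-derived populations, where no peak was called. Beyond its start, chr17:48532300-48532589 and chr17:48533108-48533358 had narrow peaks on day 4 alone, 1289 and 2097 bp from the start. The members in HOXB3 numbered 3, of which chr17:48551996-48553149 was open in hPSC, aNE and pNE (507 bp in aNE and 399 bp in pNE), chr17:48561808-48562530 in hPSC and pNE, and chr17:48573382-48573869 in no earlier list. The last, chr17:48609808-48610806 in HOXB7, was open in hPSC only, and its day 4 peak was 943 bp in pNE_M but 142 bp in pNE_T.

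The HOXD members were all without an earlier peak, and HOXC had a single one. The 3 HOXD members, chr2:176150891-176151298 beside HOXD4, and chr2:176163049-176163410 and chr2:176166892-176167259 inside HOXD3, had peaks of 189 to 408 bp on day 4. The one beside HOXD4 lay 252 bp from its start and within 1 kb of the gene of miR-10b, a HOX-cluster microRNA. An aNE-derived peak lay 514 bp from this member. HOXC had 1 member among 57 regions, chr12:53955190-53955545 at HOXC12, open in hPSC and DE. HOXA had 4 among 48, HOXB 7 among 82 and HOXD 3 among 47, which are 8.33%, 8.54% and 6.38%, against 1.75% in HOXC.

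**Figure D4:**
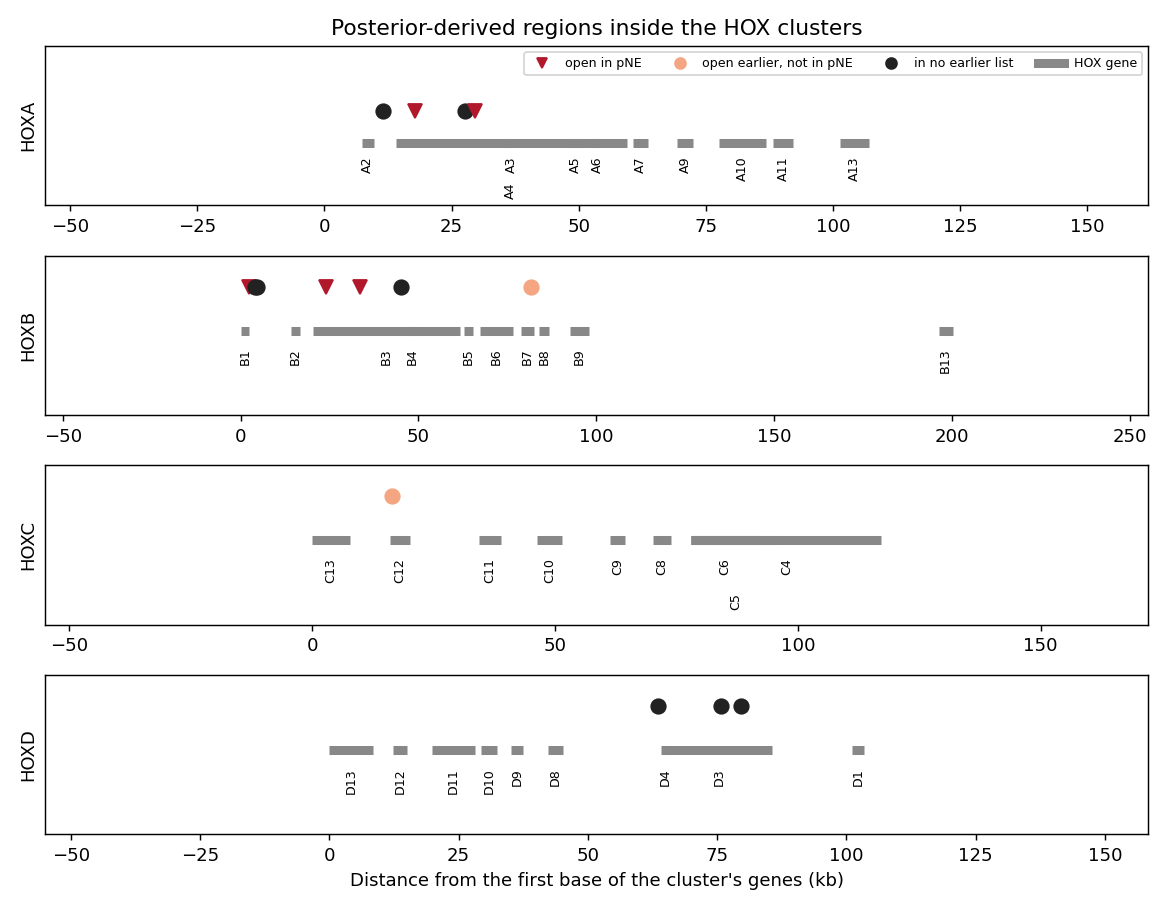
Posterior-derived regions inside the 4 HOX clusters (horizontal axis, kb from the first base of each cluster's genes; grey bars are the genes drawn). Triangles are open in pNE, orange circles are open in another earlier list, and black circles have no earlier peak; the HOXD cluster has 3 members, all black, and HOXB has 7 inside its genes.

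The HOX cofactors, the TALE homeodomain proteins, had 18 members among 624 regions (2.88%, 1.83 to 4.51), an interval that takes in the share of all regions. MEIS1 had 5 of 63 regions (7.94%), MEIS2 4 of 95 (4.21%) and PKNOX2 2 of 125 (1.6%). The widest at MEIS1, chr2:66543462-66544507 inside the gene, had peaks of 412, 576 and 1046 bp and no earlier peak. Of the 5, 1 was open on day 2, with 356 bp in pNE and 125 bp in aNE (chr2:66490178-66490880). None of the 4 at MEIS2 had an earlier peak, and the widest by its narrowest peak was chr15:37104417-37104900, in LOC124903465.

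Genes of retinoic acid signalling had a share of members near that of all regions. Of 786 regions near the 18 genes, 14 were members (1.78%, 1.06 to 2.97). RARB, a receptor that retinoic acid itself induces, had 3 among 194 regions (1.55%, against 2.33% of all regions), all inside its gene. The widest, chr3:25228689-25229214, was open in pNE (196 bp) and had peaks of 450, 280 and 526 bp on day 4, with an aNE-derived peak 496 bp away. The other 2 had no earlier peak. CYP26A1 and CYP26C1, neighbouring genes for enzymes that break down retinoic acid, shared 2, among 33 and 34 regions (6.06% and 5.88%). The wider of these, chr10:93096982-93097769, was open in hPSC, DE and pNE and not in aNE, and CYP26B1 had none. RXRG, a partner receptor, had 2 among 40 regions (5%).

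The other lists lay near or below the share of all regions. Hindbrain and posterior factors had 9 members of 525 regions (1.71%). By nearest gene their share was higher, 3.25% (2.35 to 4.46; 36 of 1109). Of the 312 regions assigned to NR2F2, 12 were members, and of the 227 assigned to NR2F1, 11 were. Forebrain factors had 5 of 395 (1.27%, 0.542 to 2.93), none of them open in pNE, and OTX2, the forebrain and midbrain determinant, had none. Midbrain and boundary factors had 5 of 515 (0.971%, 0.415 to 2.25). Neural progenitor factors had 10 of 362 (2.76%), 3 of them at POU3F2 and 2 at HES5. Pluripotency factors had 8 of 273 (2.93%), 3 of them at TFCP2L1, and NANOG and POU5F1 had none. Neural crest markers had 8 of 445 (1.80%), with 3 at MSX2. Mesoderm and endoderm markers had 6 of 402 (1.49%), and surface ectoderm markers had 11 of 408 (2.70%), with 3 at GRHL2. Of the single genes, 2 or more members were also found at BARHL2, PAX5, DMBX1, DPPA4, TFAP2B, FOXC2, GATA3, TFAP2C and CDH1. Among all protein-coding genes 12.4% had as many. At PAX5 the 2 lay among 92 regions (2.17%), beside 2 mirror regions.

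**Figure D5:**
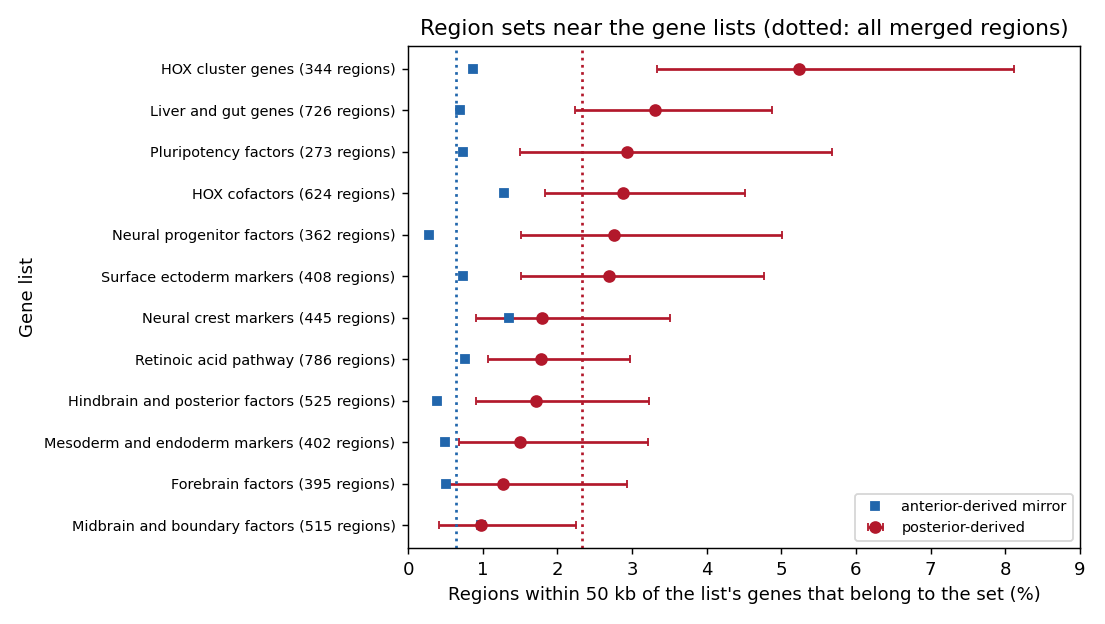
Share of merged regions within 50 kb of each list's genes (vertical axis, with the number of regions) that were posterior-derived (red circles, Wilson 95% intervals) or in the anterior-derived mirror set (blue squares). The HOX genes stand at 5.23% against the dotted red line for all regions at 2.33%; the liver and gut genes were added after the promoters were seen.

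The promoter windows of defining marker genes separated the populations poorly. Of 24 such genes 16 had a window in the annotation table, and 12 of these were open in all 10 lists. HOXB1 was the only one closed in the 3 aNE-derived lists alone. NANOG, the pluripotency factor, was open in the 4 earlier lists and aNE_T, OTX2 was closed only in pNE_T, and TP63 was open only in pNE_M. The hindbrain markers GBX2, EGR2 and HOXA2 were open in all 10 lists, so their promoters did not separate the groups.

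The genes with the most members in their windows were long genes. GPC6, a cell surface glypican, had 17 members of 244 regions, LRMDA 15, RBFOX1, a neuronal splicing regulator, 15, and CCSER1, MAGI2 and TENM2 13 each. NLGN1, ASTN2 and TENM3 had 12 each, GRIP1, LRRC4C, PARD3, ERC2 and NRXN3 11 each, and LRBA 10. As shares of the regions in the window these came to 3.03% (NRXN3) to 7.39% (CCSER1), against 2.33% of all regions. Several of these genes encode synaptic adhesion or scaffold proteins, NLGN1, NRXN3, TENM2 and TENM3 among them. A ranking by count favours long genes, and how often such genes occur among other long genes was not counted. At GRIP1 10 of the 11 had no earlier peak, and at LRBA 2 of the 10. Among windows with at least 20 regions the highest shares were in small windows: RGS22 at 20.0% (5 of 25), IL37 at 18.2% (4 of 22) and HNMT, a histamine-degrading enzyme, at 17.2% (5 of 29). APELA, which encodes the early embryonic peptide ELABELA, and CYB5R4 had 4 of 24 each. CFAP95 had 5 of 31, and BTBD18, CCDC182, MTNR1B and RIPPLY2-CYB5R4 4 of 25 each, the last sharing its regions with CYB5R4. These shares are the highest picked from many overlapping windows, and each rests on few members.

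The 169 promoter windows at members belonged to 70 protein-coding and 94 long noncoding RNA genes. They were poor in CpG: their median GC content was 46.3% and their observed CpG 0.203 of that expected, against 58.7% and 0.578 for all windows and 65.3% and 0.811 for windows at regions open in all 6 day 4 lists. The 34 windows at the mirror set were poor in CpG too, with 52.8% and 0.281. Of the 70 protein-coding genes, 44 had no earlier peak, 16 were open in pNE, 10 in aNE, 7 in DE and 12 in hPSC. They were of many kinds, among them MNX1, a homeobox gene of motor neurons, RBFOX1, KRTAP3-3, a hair keratin-associated protein, MUC7, a salivary mucin, and CD72, a B cell surface protein. Genes known for liver, gut or kidney, described next, were singled out after the values were seen, and how often such genes occur among all promoters was not counted. HNF4A, a nuclear receptor that governs hepatocyte genes, had peaks of 908, 837 and 707 bp in pNE_T, pNE_M and pNE_H over one of its starts. In the day 2 lists it had 315 bp in pNE and 214 bp in aNE. FABP1, the liver fatty acid binding protein, had 601, 584 and 381 bp and no earlier peak. HAVCR1, a kidney injury marker, had 602, 641 and 1015 bp, and A1CF, a cofactor of apolipoprotein B mRNA editing, had 312, 632 and 952 bp, both without an earlier peak. TM4SF4, SLC17A4, NR5A2, ABCC2, GUCA2B and TMED6 had none either, and NAT8, GCNT3, HRG, ADH6 and ADH1C were open in pNE alone of the earlier lists.

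A list of 30 liver and gut genes was drawn up after these promoters were seen, leaving those genes out by name. It had 24 members among 726 regions (3.31%, 2.23 to 4.87), an interval that takes in the 2.33% of all regions. The window of AHSG, a gene on the list, holds the member at the HRG promoter. The list is so not fully separate from the promoters that prompted it. By nearest gene the share of the list was 4.91% (3.50 to 6.85; 32 of 652). CPS1, the first enzyme of the urea cycle, had 6 members of 55 regions and CDH17, an intestinal cadherin, 4 of 43. ALB, AFP and APOB had none. Of the endoderm factors, SOX17 had no member in its window and FOXA2 and GATA6 had 1 each. Whether other cell types contributed to these peaks was not tested.

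Motif letters in the promoter windows differed from those of all promoters, along with base composition. The paired HOX and PBX form TGATTNAT was in 16 of 169 windows (9.47%, 5.91 to 14.8) against 2.84% of all 33558 windows, and the wider form TGATNNAT in 32 (18.9%) against 7.45%. The homeodomain core TAATTA was in 11.8% against 4.91%, the MEIS form TGACAG in 26.04% against 15.8% and the SOX form ACAAAG in 24.3% against 16.1%. The single receptor element AGGTCA was in 22.5% (16.8 to 29.4) against 13.8%, the E-box CAGCTG in 26.6% against 18.0%, and CCCTC, a part of the CTCF site, in 56.8% against 71.1%. The OTX form TAATCC was in 4.14% (2.02 to 8.30) against 6.37%, the POU form ATGCAAAT in 2.37% against 1.75% and the AP-1 form TGANTCA in 9.47% against 7.68%, with intervals that take in the values for all windows. A further 6 motifs were searched after the promoter genes were seen, TGATNNAT among them. The HNF4 form CAAAGTCCA and DR1, in which 2 copies of AGGTCA are 1 base apart, were in none of the 169 windows (0 to 2.22%), against 0.396% and 0.0238% of all. The GATA form AGATAA was in 15.98% (11.2 to 22.2) against 10.4%, and the FOX form TGTTTAC in 6.51% (3.67 to 11.3) against 3.44%. The HNF1 form was in 8 windows of 7 genes (4.73%, 2.42 to 9.06) against 0.325%. ARHGEF10L accounts for 2 of the 8, in windows that overlap. DR5 was in 1 window at a member and in 2 of all 33558.

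Because GC content differed too, the shares were also taken over windows of like GC content. Among windows between the quartiles of the members' GC content (41 to 53%), 89 were at members and 8207 were in all. TGATTNAT was in 6.74% (3.13 to 13.9) of the former and 4.19% of the latter, and TAATTA in 4.49% (1.76 to 11.0) and 7.42%, so the direction for TAATTA turned and the interval for TGATTNAT took in the value of all windows. TGATNNAT was in 16.9% (10.5 to 25.96) and 11.5%, and TGACAG in 24.7% (16.9 to 34.6) and 20.6%, with intervals that also take in the value of all. The HNF1 form was in 3 of 89 (3.37%, 1.15 to 9.45) and in 0.475%, and CAGCTG in 28.1% (19.8 to 38.2) and 19.2%. AGGTCA was in 23.6% (15.98 to 33.4) and 19.8%, ACAAAG in 25.8% (17.9 to 35.8) and 23.6%, CCCTC in 55.1% (44.7 to 64.97) and 59.7%, and AGATAA in 16.9% (10.5 to 25.96) and 17.2%, each with an interval that takes in the value of all windows of like GC content. TGTTTAC was in 11.2% (6.22 to 19.5) and 5.30%. The members away from promoters were not searched, because no genome sequence was used here.

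Of 1461 annotated microRNA hairpins 3 overlapped a member (0.205%): MIR429, MIR8081 and MIR4296, all without an earlier peak. Among the 356 hairpins at any merged region these are 0.843% (0.287 to 2.45), an interval that takes in the 2.33% of all regions. MIR429 belongs to the miR-200 family, known for its role in epithelial identity, and its mature sequence in RefSeq's GRCh38.p14 table is shown with the seed (bases 2 to 8) in capitals. The member over it (chr1:1168596-1169058) had peaks of 456, 142 and 187 bp in pNE_T, pNE_M and pNE_H, and an aNE-derived peak lay 478 bp away.
hsa-miR-429: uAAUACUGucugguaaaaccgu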

How the data were processed

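OmniATAC-seq libraries of 10 groups (3 per group) came as 1 deposited peak list per group, which gives each peak's chromosome and its first and last position, and neither a score nor a count. Bowtie2, MACS2 and bedtools and the build hg38 are named in the submitters' processing notes, without versions. The threshold, the filters and the way replicates were combined are not given in the sources used here, and depth is unknown. Each list was matched to the group whose name it carries. Gene positions, promoter windows (250 bases before to 50 after a start) and microRNAs came from RefSeq tables of GRCh38.p14.

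Peaks were merged, and open states, distances and Wilson intervals were computed with Python 3.11.15, numpy 2.4.6 and pandas 2.3.3. The merge was tested on simulated lists. Figures were drawn with matplotlib 3.10.9. The members and gene lists were chosen with earlier results of these data known. Named genes were those of the lists with at least 2 members within 50 kb, every HOX cluster, the 15 genes with the most members and the 10 with the highest share in windows of at least 20 regions. Some of these genes are not reported here. Named regions were the 10 members with the widest narrowest peak, all members in HOX clusters and the widest at RARB, the CYP26 genes, MEIS1 and MEIS2. Motifs, planned for the centre of each region, were searched in promoter windows instead, because no genome sequence was used here.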

Additional observations from a re-analysis of the deposited data

Results flagged for a closer look

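The same rule, applied outside chromosomes 1 to 22, found further regions that the report does not use. On chromosome X 402 of 16790 merged regions were open in the 3 pNE-derived lists and in no aNE-derived list (2.39%). On unplaced scaffolds and mitochondrial sequence 318 of 23893 regions were (1.33%).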

How the results depend on the processing

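The counts of members and mirror regions, the shares open in the earlier lists or near a start, the HOX share and the share of all regions were taken again under alternatives to the lists and the rule, and the gene lists under other windows. The other results were not. The cause was not tested where a value moved. With the lists cut to equal length there were 7280 members, open at 8.41% in hPSC, 8.41% in DE, 18.2% in aNE and 27.5% in pNE. With the widest 50% of each list there were 6009, with 9.32% in hPSC, 12.2% in DE, 10.4% in aNE and 3.36% within 1 kb of a start. Without pNE_T in the rule there were 23834, with 12.2% in DE, 7.40% in aNE, 16.3% in pNE and 2.37% near a start. Without pNE_M there were 28438, with 8.99% in hPSC, 11.9% in DE, 7.66% in aNE, 16.0% in pNE and 2.36% near a start. Without pNE_H, 10.6% were open in aNE and 22.6% in pNE. Without aNE_T the shares in hPSC, DE, aNE and pNE were 14.6, 20.0, 17.5 and 29.7%, without aNE_M 12.6, 16.0, 13.0 and 28.6%, and without aNE_H 12.4, 15.9, 12.6 and 28.5%. Where peaks had to cover at least 50% of the region they were 7.73, 9.65, 9.45 and 20.4%. More than 1 kb from any aNE-derived peak, 9.31% were open in hPSC and 2.34% lay near a start. In each of these alternatives pNE had the highest share of the 4 earlier lists. Windows of 500 bp and the restriction to regions more than 1 kb from gene ends moved none of these shares of members beyond its interval and no count by over 1.5 times. The share of all regions that were members, 2.33%, moved in each alternative, from 1.76 to 5.97%, and was 2.46% with windows of 500 bp and 2.42% away from gene ends. The HOX share left its interval without pNE_T (10.8%, against 5.01%), and 4 other alternatives brought the share of all regions into its interval. Alternatives for the HOX share, the mirror set and members with no earlier peak, the liver and gut list, the share of all regions, the GC range and 6 motifs were chosen after seeing the data. No paired analysis was possible because each group is 1 list. Motifs over whole regions were not run. Depth and peak thresholds are unknown, so a region without a peak is not shown to be closed.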
